A study of Homo sapiens with 4 samples.

Results

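The HOX genes encode homeodomain transcription factors that give cells their position along the axis of the body and along the limbs. In human they lie in 4 clusters, in which genes of the same place in the cluster form 13 paralog groups. Genes of low group number are switched on early and reach far towards the head, and genes of high number are switched on later and towards the tail, an order called colinearity. The cerebellum, from which medulloblastoma (MB) arises, forms ahead of the hindbrain regions that express HOX genes. Polycomb complexes keep the clusters silent where they are not used, MLL and trithorax complexes keep them active, retinoic acid opens their first genes, and TALE proteins such as PBX and MEIS bind DNA together with HOX proteins.

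All gene symbols made of HOX, a cluster letter and a group number were taken from the raw gene count table, which gave 39 of its 20363 genes. There were 11 in HOXA, 10 in HOXB, 9 in HOXC and 9 in HOXD. Their RNA was read in DAOY, a line derived from a human MB, in 4 libraries with 1 library per condition and no replicate: ZNF521 cells with SAG, ZNF521 cells with DMSO, CTL cells with SAG and CTL cells with DMSO. The study asked how ZNF521, a zinc finger co-factor, and SAG, an agonist of SMO that switches on Sonic hedgehog (SHH) signalling, change the transcriptome. ZNF521 was carried, as human or mouse cDNA, by a lentiviral vector that makes the transgene together with EGFP, and transduced cells were a sorted pool. The controls are called wild type in the deposited description and carriers of the empty vector in the study's methods, so which was sequenced is not settled, and an effect of transduction cannot be told apart from one of ZNF521. SAG was dissolved in the vehicle DMSO and given for 48 h after 24 h of starvation, and its dose in the sequenced cells is not given in the sources used here.

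Total counts ran from 12294833 to 16314685 per library. ZNF521 itself had normalized counts of 2072 (SAG) and 2013 (DMSO) in ZNF521 cells, against 751 (SAG) and 714 (DMSO) in CTL cells, and the SHH target GLI1 had 318 (SAG) and 44.2 (DMSO) in ZNF521 cells, against 324 (SAG) and 75.4 (DMSO) in CTL cells, so both labels were borne out by their own gene. The library of CTL cells with DMSO stood apart: the SD of its log2 deviations from the gene means, over 9161 genes with a mean of at least 200, was 0.273, against 0.126 to 0.143 in the other 3. The label of a cerebellar MB was only partly matched by markers of granule neuron progenitors, since ATOH1 and BARHL1 had under 10 counts in every library and NEUROD1 had at most 10, while PAX6, ZIC1 and ZIC2 were present at normalized counts of 176 to 307. The mesenchymal genes VIM, FN1 and COL1A1 were abundant, while PRRX1 had normalized counts of 147 to 183. The epithelial genes KRT8 (4677 to 5666) and KRT18 (7166 to 9270) were abundant as well, while EPCAM and CDH1 had at most 22.6 and 28.8. The neural gene NES had 1518 to 1732, and DCX had under 10 counts in every library. Blood markers also had under 10 counts in every library. These markers thus did not single out a mesenchymal identity. With bulk RNA, fewer cells of a type and less RNA per cell cannot be told apart.

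The clusters lie on chromosome 7 (HOXA), chromosome 17 (HOXB, chr17:48528526-48728750), chromosome 12 (HOXC, chr12:53938831-54056030) and chromosome 2 (HOXD, chr2:176092721-176190907) of hg38, with all genes of a cluster on 1 strand. They also hold genes of microRNAs, short RNAs that bind 3′ UTRs of mRNAs through their seed. Sequences of 3 of them are shown because they come from inside the clusters and some HOX mRNAs hold their seed match. They are from RefSeq (GRCh38.p14), 5′ to 3′, with the seed (bases 2 to 8) in capitals.
miR-10a-5p: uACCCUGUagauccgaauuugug
miR-196a-5p: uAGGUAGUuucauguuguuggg
miR-196b-5p: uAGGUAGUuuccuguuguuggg
MIR10A lies in HOXB (chr17:48579904-48579926, minus strand). miR-196a and miR-196b share 1 seed, and their genes lie in HOXB (MIR196A1, chr17:48632532-48632553, minus strand), HOXC (MIR196A2, chr12:53991762-53991783, plus strand) and HOXA (MIR196B, chr7:27169528-27169549, minus strand). The libraries do not measure mature microRNAs, and the miRNA genes of the clusters that are in the table had few reads, with 1 to 5 counts for MIR10B and 0 to 4 for MIR196A2.

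The 7 letters that pair with the seed of miR-196a and miR-196b, ACTACCT, were present in the 3′ UTRs of 8 of the 39 HOX genes (20.5%), against 7.34% of the 3′ UTRs of 16919 coding genes. These were HOXA5, HOXA7, HOXA9, HOXB1, HOXB6, HOXB7, HOXB13 and HOXC8, with 4 matches in HOXA7, 3 in HOXC8 and 2 in HOXA9. The match to miR-10a, ACAGGGT, was present in 3 (7.69%), HOXA3 and HOXB3 among them, against 13.4% of all. Sites of 4 genes are shown with the match in capitals, read on the strand of the gene from GENCODE transcripts.
HOXA7: tggcgcgtccaaaatACTACCTa
HOXB7: caacactgaaaaaatACTACCTa
HOXC8: acactcacaactctaACTACCTg
HOXB3: tgacttaacgtgaaaACAGGGTa
They lie at chr7:27154600-27154622 (HOXA7, minus strand), chr17:48607614-48607636 (HOXB7, minus strand), chr12:54011494-54011516 (HOXC8, plus strand) and chr17:48549467-48549489 (HOXB3, minus strand). HOXB7, the most abundant HOX mRNA per length, thus carries a match to the seed of miR-196a, and so does HOXA7, the other member of its paralog group, which was among the lowest. A match is a run of letters only, and binding was not measured.

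Of the 39 genes, 36 were expressed, reaching 10 counts in at least 1 library. The 3 called not expressed were HOXB1, HOXD4 and HOXD12, with 0 to 3, 2 to 5 and 1 to 5 counts per library. HOXB1 marks a single segment of the hindbrain in the embryo, and it was at 0 in both libraries of CTL cells. HOXC5 came nearest to that limit from above, with 10 counts in CTL cells with DMSO and 2 to 6 in the other libraries. The other 35 had at least 10 counts in at least 2 libraries and were tested, and 33 of the 39 had at least 10 in every library. With the limit at 20 counts in every library 6 genes were called not expressed, and with the limit at 5 counts in every library, or at 10 in the sum of the libraries, 1 gene was, HOXB1.

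**Figure D1:**
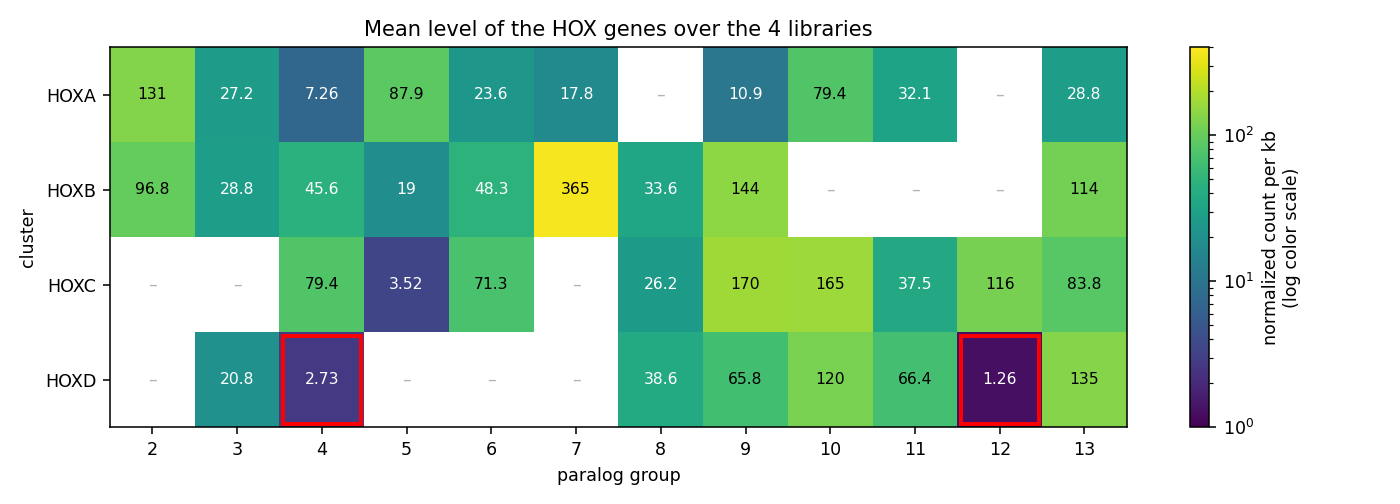
Mean normalized count per kb of transcript over the 4 libraries, with clusters as rows and paralog groups 2 to 13 as columns, on a log color scale. A dash marks a place with no gene, and red frames mark HOXD4 and HOXD12, called not expressed. HOXB7 is highest at 365, and groups 9 to 13 of HOXC and HOXD hold values of at least 37.5 apart from HOXD12.

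To compare genes, the deposited normalized count was divided by the length of the main transcript in kb. The median over the 35 tested HOX genes was 48.3 normalized counts per kb, against 94.95 over 14601 tested genes with a length. Against the quartiles of all tested genes (27.0 and 274), 8 HOX genes lay below the lower one, 17 between it and the median, and 10 above the median. Only HOXB7 lay above the upper quartile. HOX mRNA was thus present from nearly all places of the clusters at low to moderate levels.

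The clusters shared the summed level per kb unevenly. HOXB took 34.8% ± 1.55 (SD over the 4 libraries, which are not replicates), HOXC 29.2% ± 0.82, HOXA 18.4% ± 0.72 and HOXD 17.6% ± 1.45. HOXA and HOXD overlapped in their shares, which were 17.4 to 19.1% and 16.6 to 19.6% by library, and HOXD was above HOXA only in CTL cells with DMSO. HOXB stayed above HOXC in every library, with 32.6% against 30.4% at the closest, in CTL cells with DMSO. HOXB7 alone gave 365 of the mean HOXB sum of 895 normalized counts per kb, and the HOXC sum was 752. The lead of HOXB thus rested on that gene.

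Posterior genes carried the larger part. Paralog groups 9 to 13, with 16 of the 39 genes, made up 53.0% ± 1.87 of the summed level per kb. Groups 4 to 8, with 15 genes, made up 33.9% ± 1.85 and groups 1 to 3, with 8 genes, made up 13.1% ± 0.21. The split differed by cluster: groups 9 to 13 took 85.3% of HOXD and 76.0% of HOXC, against 31.9% of HOXA and 28.8% of HOXB. In HOXA the groups 1 to 3 led with 39.2%, mostly through HOXA2, and in HOXB the groups 4 to 8 led with 57.1%, mostly through HOXB7. By single paralog group, group 9 held 15.1%, group 7 held 14.99%, group 10 held 14.1% and group 13 held 14.04%, while group 1 held 1.27%.

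The highest gene of each cluster was HOXA2 with a mean of 131 normalized counts per kb, HOXB7 with 365, HOXC9 with 170 and HOXD13 with 135. HOXB7 ranged from 301 to 415 over the libraries and did not overlap with any other HOX gene. HOXC9 (158 to 194), HOXC10 (157 to 174) and HOXB9 (114 to 189) came next and overlapped with each other, so their order is not settled. HOXD13, HOXA2, HOXD10, HOXC12 and HOXB13 followed with means of 114 to 135, and each overlapped with the next in that order. The lowest genes among those tested were HOXD1 at 4.89, HOXA4 at 7.26 and HOXA9 at 10.9 normalized counts per kb.

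Paralogs differed in level in some groups. In group 7 HOXA7 had a mean of 17.8 normalized counts per kb and HOXB7 had 365. In group 9 HOXA9 had 10.9 and HOXD9 had 65.8, against 144 in HOXB9 and 170 in HOXC9. In group 13, the genes of the far ends, HOXA13 had 28.8 and HOXC13 had 83.8, against 114 in HOXB13 and 135 in HOXD13. HOXA was thus the low cluster in groups 7, 9 and 13, while in group 2 HOXA2 (122 to 141 over the libraries) lay above HOXB2 (84.5 to 104) with no overlap. In other groups paralogs lay closer together, with means of 20.8 to 28.8 in group 3 and of 26.2 to 38.6 in group 8.

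Neighbours within a cluster differed widely as well. HOXC5 had a mean of 3.52 normalized counts per kb between HOXC4 at 79.4 and HOXC6 at 71.3. HOXD12 had 1.26 between HOXD11 at 66.4 and HOXD13 at 135. HOXA4 had 7.26 beside HOXA5 at 87.9. For some genes the exons of other annotated genes overlap: on the same strand 10 HOX genes share transcript bases, 6 of them over 10%, with 67.3% in HOXC5, 32.1% in HOXA4 and 26.5% in HOXD11, which shares them with HOXD10. On the opposite strand 17 HOX genes have such exons, reaching 74.8% of HOXA7 and 60.1% of HOXD1. Counts of these genes depend on how shared reads were assigned, and the strand setting of the count is not given in the sources used here.

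**Figure D2:**
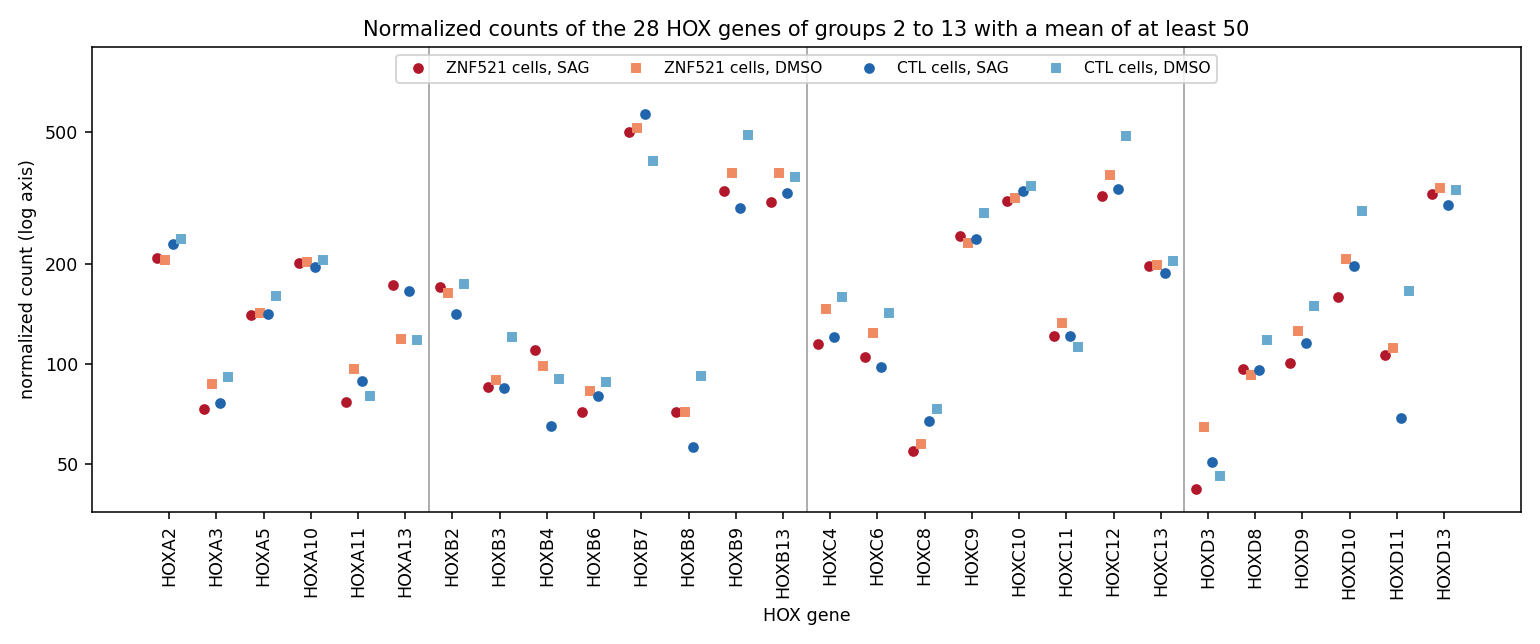
Normalized count (log axis) of the 28 HOX genes of groups 2 to 13 with a mean of at least 50, with 1 point per library and clusters parted by grey lines. For most genes the 4 points lie close together, with the point of CTL cells with DMSO on top in HOXB9, HOXC12, HOXD10 and HOXD11.

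In HOXA, the anterior genes pattern the hindbrain and the arches of the neck. HOXA2, which sets the identity of the second branchial arch, had normalized counts of 209 (SAG) and 206 (DMSO) in ZNF521 cells, against 230.1 (SAG) and 238 (DMSO) in CTL cells. HOXA3, needed for thymus and parathyroid in mouse, had 73.4 (SAG) and 87.5 (DMSO) in ZNF521 cells, against 76.7 (SAG) and 91.5 (DMSO) in CTL cells. HOXA2 was nearly level with treatment and slightly lower in ZNF521 cells, while HOXA3 was lower with SAG in both kinds of cells. HOXA5, needed for the airways in mouse, had 141 (SAG) and 143 (DMSO) in ZNF521 cells, against 142 (SAG) and 161 (DMSO) in CTL cells. HOXA10, which acts in the uterus, had 202 (SAG) and 203 (DMSO) in ZNF521 cells, against 196.2 (SAG) and 206 (DMSO) in CTL cells, the smallest spread of any tested HOX gene, with the highest library at 1.05 times the lowest. HOXA11, which patterns the forearm together with HOXD11, had 76.8 (SAG) and 96.7 (DMSO) in ZNF521 cells, against 89.1 (SAG) and 80.4 (DMSO) in CTL cells. In each of these 3 genes the highest library was at most 1.26 times the lowest. HOXA13, which shapes the hand, foot and genital tract, had 174 (SAG) and 119 (DMSO) in ZNF521 cells, against 166 (SAG) and 119 (DMSO) in CTL cells. It was higher with SAG in both kinds of cells and nearly the same in ZNF521 and CTL cells.

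In HOXB, the first genes again belong to the hindbrain. HOXB2, which acts in the segment of the facial nerve in mouse, had normalized counts of 170.4 (SAG) and 164 (DMSO) in ZNF521 cells, against 142 (SAG) and 175 (DMSO) in CTL cells. HOXB3, a further hindbrain gene, had 85.2 (SAG) and 89.5 (DMSO) in ZNF521 cells, against 84.6 (SAG) and 121 (DMSO) in CTL cells, with CTL cells with DMSO above the other 3. HOXB4, known for expanding blood stem cells, had 111 (SAG) and 98.8 (DMSO) in ZNF521 cells, against 65.4 (SAG) and 90.5 (DMSO) in CTL cells. HOXB4 was the only tested HOX gene for which both libraries of ZNF521 cells lay above both of CTL cells. HOXB6, expressed in mesoderm and blood progenitors, had 71.7 (SAG) and 83.3 (DMSO) in ZNF521 cells, against 80.1 (SAG) and 88.5 (DMSO) in CTL cells. HOXB7, which is often overexpressed in solid tumours, had 500.3 (SAG) and 514 (DMSO) in ZNF521 cells, against 566 (SAG) and 410.1 (DMSO) in CTL cells. HOXB8, which holds mouse myeloid progenitors in an immature state when forced on, had 71.7 (SAG) and 72.0 (DMSO) in ZNF521 cells, against 56.4 (SAG) and 92.5 (DMSO) in CTL cells. HOXB7 was lowest in CTL cells with DMSO, where HOXB8 was highest. HOXB9, a thoracic gene, had 332 (SAG) and 377 (DMSO) in ZNF521 cells, against 295 (SAG) and 489 (DMSO) in CTL cells. HOXB13, best known from the prostate, had 309 (SAG) and 378 (DMSO) in ZNF521 cells, against 327 (SAG) and 367 (DMSO) in CTL cells. Both were lower with SAG than with DMSO in each kind of cells.

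In HOXC, which has no gene of groups 1 to 3, the genes of the neck and trunk came first. HOXC4 had normalized counts of 115 (SAG) and 147 (DMSO) in ZNF521 cells, against 121 (SAG) and 159.8 (DMSO) in CTL cells. HOXC6, which acts in motor neurons of the forelimb level, had 105 (SAG) and 125 (DMSO) in ZNF521 cells, against 98.1 (SAG) and 143 (DMSO) in CTL cells. HOXC8, which acts at the same level, had 54.8 (SAG) and 57.6 (DMSO) in ZNF521 cells, against 67.7 (SAG) and 73.4 (DMSO) in CTL cells. HOXC4 and HOXC6 were lower with SAG in each kind of cells, and HOXC8 was lower in ZNF521 cells under both treatments. HOXC9, which sets thoracic motor neurons in mouse, had 244 (SAG) and 233 (DMSO) in ZNF521 cells, against 238 (SAG) and 285 (DMSO) in CTL cells. HOXC10, which acts at the lumbar level, had 309.6 (SAG) and 317 (DMSO) in ZNF521 cells, against 332 (SAG) and 345 (DMSO) in CTL cells. HOXC11, a further posterior gene, had 121 (SAG) and 133 (DMSO) in ZNF521 cells, against 122 (SAG) and 113 (DMSO) in CTL cells. Each of these 3 stayed within a narrow band, with the highest library at most 1.23 times the lowest. HOXC12 had 321 (SAG) and 372 (DMSO) in ZNF521 cells, against 336 (SAG) and 486 (DMSO) in CTL cells. HOXC13, needed for hair and nails, had 197 (SAG) and 199.6 (DMSO) in ZNF521 cells, against 188 (SAG) and 205 (DMSO) in CTL cells. HOXC12 was highest in CTL cells with DMSO, and HOXC13 had 4 values close together.

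In HOXD, the last genes shape limbs, digits and the genital tract. HOXD3, the only anterior gene of this cluster with a mean of at least 50, had normalized counts of 42.2 (SAG) and 64.8 (DMSO) in ZNF521 cells, against 50.7 (SAG) and 46.2 (DMSO) in CTL cells. HOXD8 had 97.0 (SAG) and 92.6 (DMSO) in ZNF521 cells, against 95.9 (SAG) and 119 (DMSO) in CTL cells. HOXD9, which acts at the lumbar level and in the limb, had 101 (SAG) and 126 (DMSO) in ZNF521 cells, against 116 (SAG) and 149.8 (DMSO) in CTL cells. HOXD9 was highest in CTL cells with DMSO and lowest in ZNF521 cells with SAG. HOXD10, which sets lumbar motor neurons in mouse, had 159 (SAG) and 208 (DMSO) in ZNF521 cells, against 197 (SAG) and 289 (DMSO) in CTL cells. HOXD11, the partner of HOXA11 in the forearm, had 106 (SAG) and 112 (DMSO) in ZNF521 cells, against 68.8 (SAG) and 166 (DMSO) in CTL cells. HOXD13, the gene mutated in synpolydactyly, had 326 (SAG) and 339 (DMSO) in ZNF521 cells, against 302 (SAG) and 335 (DMSO) in CTL cells. HOXD10 and HOXD11 varied with the conditions, while HOXD13, the highest of the cluster per length, varied by 1.12 times. The remaining 6 tested genes, HOXA4, HOXA6, HOXA7, HOXA9, HOXB5 and HOXD1, had normalized counts of 6.75 to 46.2 in single libraries.

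In 21 of the 35 tested genes (60%) the highest library was under 1.5 times the lowest, against 67.7% of all 14970 tested genes. CTL cells with DMSO, the library that stood apart over all genes, were highest in 24 of the 35 (68.6%), against 34.5% of all tested genes. The latter share is not matched for transcript GC content. The median log2 deviation of CTL cells with DMSO was -0.263 in the bin of lowest GC and 0.183 in that of highest. In ZNF521 cells it was 0.008 and 0.057 with DMSO, and 0.140 and -0.129 with SAG. In CTL cells with SAG it was 0.132 and -0.096. Over the HOX genes this median was 0.134 in CTL cells with DMSO and -0.075 to 0.040 in the other libraries. The part of GC in the 68.6% was not tested.

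The first comparison asked what SAG did, with the kind of cells as a second term in edgeR's quasi-likelihood test. With SAG 33 of the 35 tested HOX genes had lower fitted values, against 49.9% of all tested genes, and the median log2 difference was -0.18, against 0.00 over all. The 2 exceptions were HOXA13 and HOXB7. Transcript GC content moved with the SAG difference over all genes, and with GC as an offset in the fit 24 of the 35 were lower. No HOX gene passed an adjusted p of 0.05 by edgeR, a threshold that 0.0401% of all tested genes passed. At a p of at most 0.05 before adjustment, which is the study's own limit and is called nominal here, 5 were lower (background 5.12%) and 1 was higher (background 6.21%), so 6 of 35 against 11.3% of all. DESeq2 called 0 HOX genes at either threshold, and 7 of all tested genes at the adjusted one. Its share of all tested genes at the nominal limit is not given here. In 19 of the 35 (54.3%) both libraries with SAG lay below both with DMSO, against 22.7% of all tested genes, and in 1, HOXA13, both lay above, against 25.4%.

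The size of the shift differed by cluster. The median SAG difference was -0.34 in HOXD, -0.23 in HOXB, -0.10 in HOXA and -0.10 in HOXC on the log2 scale. All 7 tested genes of HOXD and all 8 of HOXC had lower fitted values, with 8 of 9 in HOXB and 10 of 11 in HOXA. By paralog class the medians were -0.26 for groups 1 to 3, -0.18 for groups 4 to 8 and -0.10 for groups 9 to 13. These differences between clusters and classes were not tested.

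Of the 6 genes past the nominal limit, HOXD11 was 1.57-fold lower with SAG than with DMSO (log2 difference -0.65, SE 0.27, adjusted p = 0.406 by edgeR), from the values given above. HOXD10 was 1.38-fold lower (-0.47, SE 0.18, edgeR adjusted p = 0.391). In all 5 genes that were lower at this limit, both libraries with SAG lay below both with DMSO. HOXB9 was 1.37-fold lower (-0.45, SE 0.18, edgeR adjusted p = 0.400), and HOXC12 was 1.29-fold lower (-0.37, SE 0.17, edgeR adjusted p = 0.430). HOXA13 was 1.43-fold higher with SAG (0.51, SE 0.19, edgeR adjusted p = 0.391). These sizes depended on single libraries. Without CTL cells with DMSO the log2 differences were -0.34 in HOXD11, -0.24 in HOXD10, -0.27 in HOXB9 and -0.19 in HOXC12, while HOXA13 kept 0.50. Without ZNF521 cells with DMSO they were -0.90 in HOXD11, -0.72 in HOXD10, -0.64 in HOXB9 and -0.57 in HOXC12. HOXD11 was also at -0.39 without CTL cells with SAG and at -1.02 without ZNF521 cells with SAG.

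Taking each kind of cells alone, 28 of the 35 were lower with SAG in ZNF521 cells (median log2 ratio -0.13), against 48.7% of all tested genes, and 28 in CTL cells (-0.25), against 49% of all. In 22 (62.9%) the gene was lower in both, against 29.7% of all. Exact 95% intervals of the ratio of 2 libraries, which cover counting error only, lay below 1 in both kinds of cells for HOXC4, HOXC12 and HOXD10 (8.57%, against 6.23% of all tested genes), and above 1 in both for HOXA13 alone (2.86%, against 9.67%). For HOXD10 the ratio of SAG to DMSO was 0.767 (0.626 to 0.940) in ZNF521 cells and 0.682 (0.562 to 0.825) in CTL cells. For HOXA13 it was 1.46 (1.15 to 1.84) in ZNF521 cells and 1.40 (1.09 to 1.80) in CTL cells. HOXD11 was different: its ratio was 0.948 in ZNF521 cells, with an interval that held 1, and 0.415 (0.304 to 0.560) in CTL cells. For HOXB9 the ratio was 0.880 in ZNF521 cells, again with an interval that held 1, and 0.605 (0.518 to 0.704) in CTL cells. The difference between the kinds of cells was not tested for either gene.

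**Figure D3:**
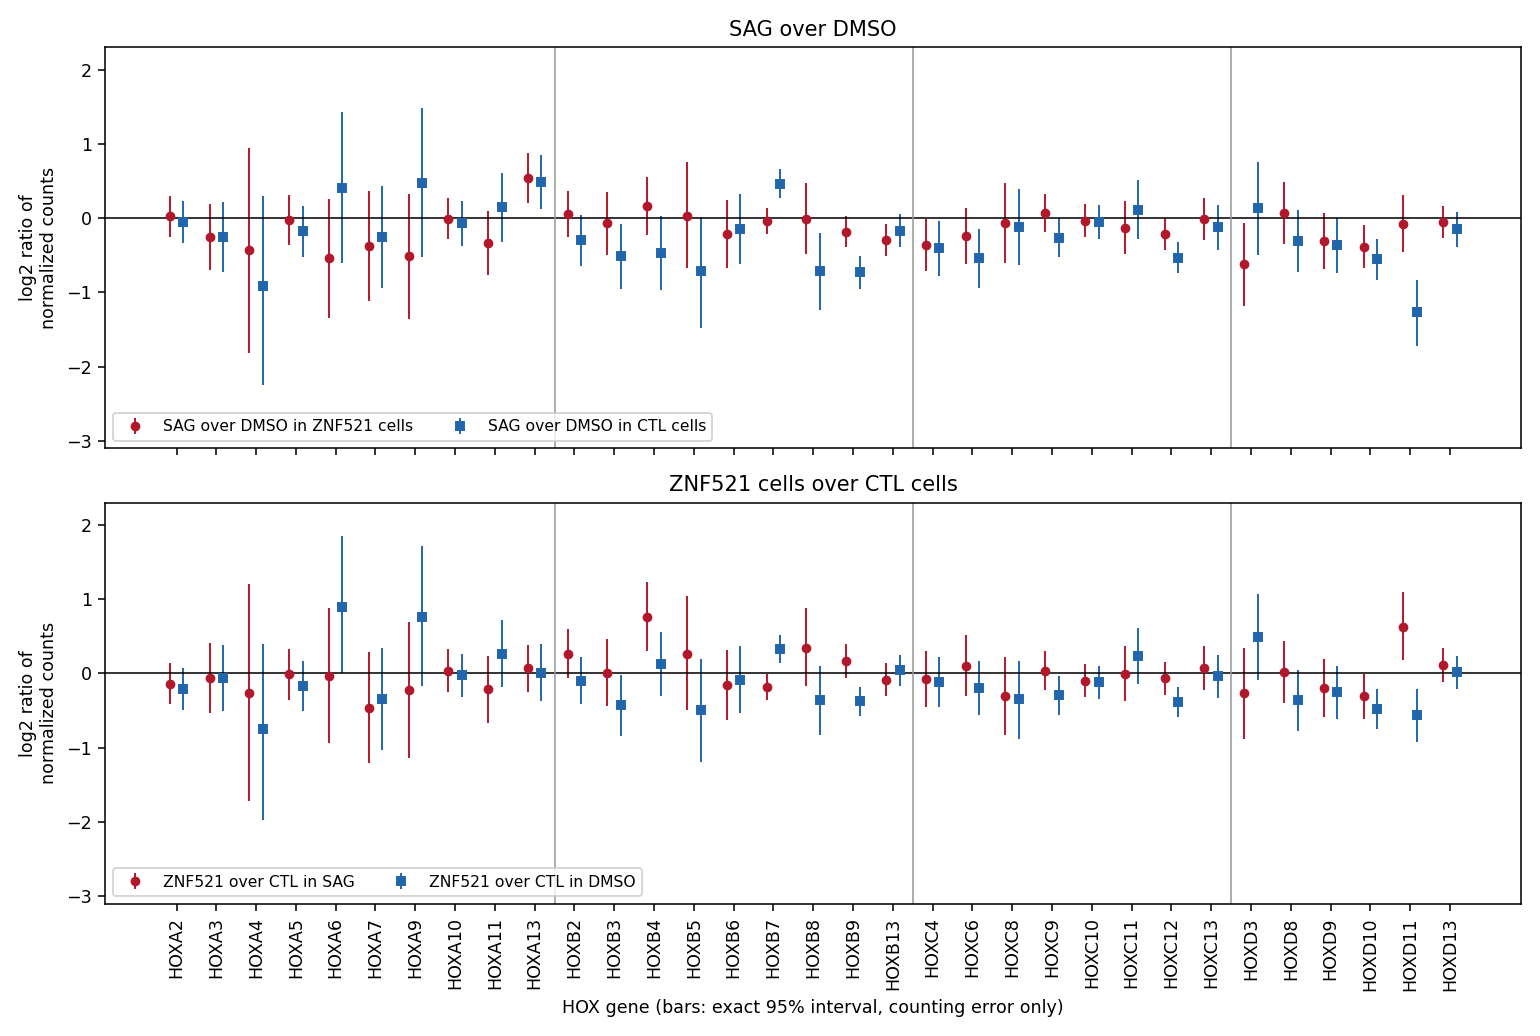
Log2 ratio of normalized counts for the 33 tested HOX genes of groups 2 to 13, with SAG over DMSO above and ZNF521 cells over CTL cells below. Points are single pairs of libraries and bars are exact 95% intervals that cover counting error only. With SAG most points lie below 0 and HOXA13 lies above 0 in both kinds of cells, and between the kinds of cells HOXD11 and HOXB7 point opposite ways under SAG and DMSO.

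Promoters of HOXD10 and HOXD11, neighbours that share exonic bases, and of HOXA13 are shown because HOXD11 had the lowest and HOXA13 the highest fitted SAG difference among HOX genes with a mean of at least 50. Each is the 250 bases before the start in RefSeq (GRCh38.p14), read 5′ to 3′ on the strand of the gene, with a match to the PBX-HOX motif in capitals where there is one.
HOXD11: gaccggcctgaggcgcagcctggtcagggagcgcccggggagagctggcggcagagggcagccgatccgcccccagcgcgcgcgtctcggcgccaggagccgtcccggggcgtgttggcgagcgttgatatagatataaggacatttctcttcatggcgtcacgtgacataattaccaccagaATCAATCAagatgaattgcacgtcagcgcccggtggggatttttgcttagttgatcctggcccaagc
HOXD10: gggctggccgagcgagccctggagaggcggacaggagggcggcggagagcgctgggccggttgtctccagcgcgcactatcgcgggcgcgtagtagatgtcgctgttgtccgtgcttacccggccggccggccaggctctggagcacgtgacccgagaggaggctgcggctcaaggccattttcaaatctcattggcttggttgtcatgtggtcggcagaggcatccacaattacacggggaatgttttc
HOXA13: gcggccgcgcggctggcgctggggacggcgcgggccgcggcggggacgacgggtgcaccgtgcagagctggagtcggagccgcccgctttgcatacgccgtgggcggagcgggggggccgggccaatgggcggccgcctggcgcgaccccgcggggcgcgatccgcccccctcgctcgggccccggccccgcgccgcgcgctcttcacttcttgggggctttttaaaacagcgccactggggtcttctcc
They lie at chr2:176107030-176107279 (HOXD11, plus strand), chr2:176116528-176116777 (HOXD10, plus strand) and chr7:27200092-27200341 (HOXA13, minus strand), with 61.6%, 64.0% and 78.0% GC. The motif TGATNNAT, bound by PBX with an anterior HOX protein, was searched on both strands of the promoter windows of 300 bases, which were at hand for 20 of the 39 genes in 27 windows. It was in 3 of them (HOXA2, HOXB1 and HOXD11), against 7.4% of 35116 windows of all genes. The GLI motif GACCACCCA, read by the effectors of SHH signalling, was in 0 of the 27 HOX windows, against 0.236% of all windows.

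GC content moved with the SAG difference over all genes and with it in the HOX genes. The median GC content of the transcript was 54.68% for the tested HOX genes, against 48.83% for all. With all tested genes split into 5 bins of like size by GC, the share with lower fitted values with SAG was 11.02, 23.5, 49.2, 76.9 and 89.7% in bins 1 to 5, from low to high GC. Bin 1 held 0 HOX genes, bin 2 held HOXA13, the HOX gene of lowest GC (43.71%), bin 3 held 9, bin 4 held 21 and bin 5 held 4. Within bin 4 the median log2 difference was -0.23 for the HOX genes, against -0.12 for all genes there, and within bin 5 it was -0.35, against -0.23. With the GC offset in edgeR, under which 50.1% of all genes were lower with SAG, the median of the HOX genes was -0.09. Then 4 genes were lower at the nominal limit (HOXB9, HOXC4 and HOXD10 among them), so 11.4% against 3.01% of all, HOXA13 was higher (background 2.11%), and HOXC12 and HOXD11 were no longer among them.

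**Figure D4:**
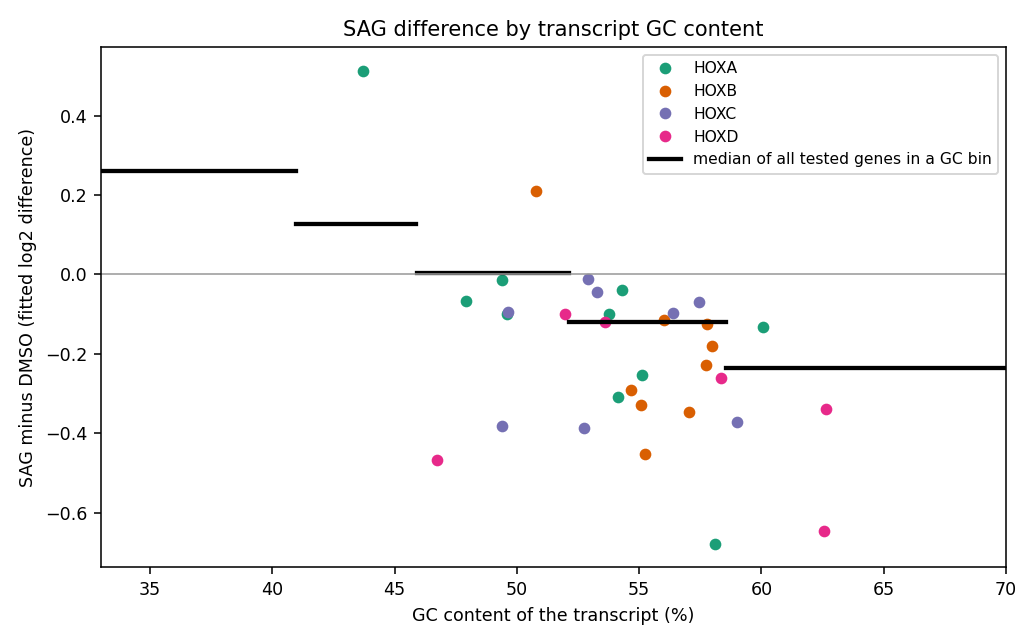
Fitted log2 difference of SAG minus DMSO against the GC content of the transcript for the 33 tested HOX genes of groups 2 to 13, colored by cluster, with black lines for the median of all tested genes in each of 5 GC bins. HOXA13 sits at the low end of GC with 0.51, and the median of the HOX genes in bin 4 is -0.23, below its line at -0.12.

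CTL cells with DMSO entered this comparison as 1 of 2 libraries with DMSO. Without that library 28 of the 35 were lower with SAG, against 49.6% of all genes, and 2 genes (5.71%), HOXA13 among them, passed the nominal limit, against 14.6% of all. Without ZNF521 cells with DMSO, so that CTL cells with DMSO stood alone for the vehicle, edgeR called 6 HOX genes at an adjusted p of 0.05, namely HOXA13, HOXB7, HOXB9, HOXC12, HOXD10 and HOXD11. This was 17.1% of the tested HOX genes, against 30.6% of all tested genes under the same setting, so the share was below its background. The library left alone is assumed there to vary like the rest. Of the 7 mesenchymal markers, FN1, COL1A1, COL1A2 and PDGFRB were highest in CTL cells with DMSO, with COL1A1 at 15912 there and at 4913 to 5316 in the other 3 libraries. VIM and TWIST1 lay within the range of the other 3, and PRRX1 was lowest in CTL cells with DMSO, at 147 there and at 169 to 183 in the others. The summed count of the 7, most of it from FN1 and VIM, was 122557 in CTL cells with DMSO and 71524 to 75372 in the other 3. The part of this in the HOX values was not tested.

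The second comparison asked what ZNF521 did, with treatment as the second term. In ZNF521 cells 23 of the 35 tested HOX genes had lower fitted values, against 50.6% of all tested genes. The median log2 difference was -0.08, against -0.003 over all. GC content moved with this difference too: the share of all genes lower in ZNF521 cells was 23.2, 42.7, 57.4, 61.7 and 69.0% in GC bins 1 to 5. With the GC offset 19 of the 35 HOX genes were lower, against 49.8% of all, and the HOX median was -0.016. No HOX gene passed an adjusted p of 0.05 by edgeR (background 0.00668%), and 1, HOXD10, was lower at a p of at most 0.05 before adjustment (background 5.48% in all, 3.11% lower and 2.36% higher). DESeq2 again called 0 HOX genes at either threshold, and 1 of all tested genes at the adjusted one, with no share of all at the nominal limit given. In 4 genes, HOXA2, HOXA7, HOXC8 and HOXC10, both libraries of ZNF521 cells lay below both of CTL cells, so in 11.4%, against 13% of all tested genes, and in HOXB4 both lay above, so in 2.86%, against 13.3%. Both shares were below their background.

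HOXD10 was 1.33-fold lower in ZNF521 cells (log2 difference -0.41, SE 0.18, adjusted p = 0.907 by edgeR). Its ratio of ZNF521 cells to CTL cells was 0.808 (exact 95% interval 0.654 to 0.998) with SAG and 0.718 (0.597 to 0.862) with DMSO, the only tested HOX gene with both intervals on the same side of 1 (2.86% lower, against 2.83% of all tested genes, and 0 higher, against 3.35%). Its log2 difference was -0.11 without CTL cells with DMSO, -0.25 without ZNF521 cells with SAG, -0.62 without ZNF521 cells with DMSO and -0.68 without CTL cells with SAG. HOXB4 was 1.34-fold higher (0.42, SE 0.24, edgeR adjusted p = 0.957), with a ratio of 1.69 (1.23 to 2.34) with SAG and 1.09 with DMSO, where the interval held 1. In HOXA2, HOXA7, HOXC8 and HOXC10 the fitted log2 differences were -0.19, -0.41, -0.34 and -0.12, with adjusted p values of 0.967 to 0.988 by edgeR.

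The ZNF521 difference depended on the same library. The HOX median was -0.01 with SAG, with 20 of 35 lower, against 50.6% of all tested genes, and -0.12 with DMSO, with 24 of 35 lower, against 47.4%. Without CTL cells with DMSO the median turned to 0.05, with 12 of 35 lower, against 49.3% of all, and 3 genes (8.57%), HOXB4 and HOXD11 among them, higher at the nominal limit, against 2.46%. Without CTL cells with SAG edgeR called 4 genes at an adjusted p of 0.05, HOXB9, HOXC12, HOXD10 and HOXD11, all lower in ZNF521 cells, so 11.4%, against 15.6% of all tested genes in either direction and 8.04% lower. CTL cells with DMSO then stood alone for the CTL cells. In 18 of the 35 (51.4%) the direction under SAG was the opposite of that under DMSO, against 49.9% of all. In HOXB7 and HOXD11 both exact intervals were also clear of 1, so in 5.71%, against 5.8%.

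Regulators and partners of the HOX genes were then counted in the same fits, in which no member of the lists named here passed an adjusted p of 0.05 by edgeR. The shares of all tested genes at the nominal limit, given above, are repeated beside each count. All 9 TALE cofactors were tested, and 0 passed in either comparison, against 11.3% for SAG and 5.48% for ZNF521. MEIS1 had normalized counts of 1071 (SAG) and 1081 (DMSO) in ZNF521 cells, against 1017 (SAG) and 844 (DMSO) in CTL cells, and was present throughout. Of 21 Polycomb genes, RNF2 was higher and PCGF2 and CBX7 were lower with SAG at the nominal limit, so 3 of 21 against 11.3% of all, and 0 passed with ZNF521, against 5.48%. PCGF2, a subunit of the first Polycomb complex, had 326 (SAG) and 379 (DMSO) in ZNF521 cells, against 300.0 (SAG) and 727 (DMSO) in CTL cells, and was high in CTL cells with DMSO alone. Of 9 MLL and trithorax genes, KMT2B was lower in ZNF521 cells (1 of 9, against 3.11% of all), and KMT2B and DOT1L were lower with SAG (2 of 9, against 5.12%). KMT2B, a methyltransferase of histone H3, had 431 (SAG) and 425 (DMSO) in ZNF521 cells, against 433 (SAG) and 927 (DMSO) in CTL cells, again high in CTL cells with DMSO alone.

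Of 17 retinoic acid genes, STRA6 and CRABP1 were lower in ZNF521 cells at the nominal limit (2 of 17, against 3.11% of all), and 0 passed with SAG, against 11.3%. STRA6, the receptor that takes up retinol, had normalized counts of 246 (SAG) and 259 (DMSO) in ZNF521 cells, against 392 (SAG) and 457 (DMSO) in CTL cells (ZNF521 minus CTL on the log2 scale -0.76, SE 0.16, adjusted p = 0.406 by edgeR). Both libraries of ZNF521 cells lay below both of CTL cells, as they did for CRABP1, which binds retinoic acid in the cell and had 27.0 (SAG) and 31.9 (DMSO) in ZNF521 cells, against 49.6 (SAG) and 61.3 (DMSO) in CTL cells. Of 9 tested genes that pattern midbrain and hindbrain, 3 were lower in ZNF521 cells at the nominal limit, PAX5 and PAX2 among them, against 3.11% of all, and 1, PAX2, was lower with SAG, against 5.12%. FGF8 had under 10 counts in every library. PAX5, which acts at the border of midbrain and hindbrain, had 33.7 (SAG) and 47.3 (DMSO) in ZNF521 cells, against 65.4 (SAG) and 92.5 (DMSO) in CTL cells. Of 5 CDX and ParaHox genes, CDX1, GSX1 and GSX2 had under 10 counts in every library, and 2 were tested. CDX2 had 67.5 (SAG) and 79.2 (DMSO) in ZNF521 cells, against 57.5 (SAG) and 52.3 (DMSO) in CTL cells. PDX1, which specifies the pancreas, had 21.1 (SAG) and 13.4 (DMSO) in ZNF521 cells, against 21.4 (SAG) and 61.3 (DMSO) in CTL cells. It was lower in ZNF521 cells at the nominal limit (1 of 2, against 3.11% of all), and 0 passed with SAG, against 11.3%.

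Non-coding RNAs of the clusters were measured for 18 genes, of which 15 were tested. HOXA-AS3, antisense to HOXA7, had normalized counts of 37.1 (SAG) and 63.8 (DMSO) in ZNF521 cells, against 24.8 (SAG) and 34.2 (DMSO) in CTL cells, so it was higher in ZNF521 cells (log2 difference 0.75, SE 0.30, edgeR adjusted p = 0.893) and lower with SAG (-0.65, SE 0.29, edgeR adjusted p = 0.434). HOXA7 itself, of which 74.8% lies under exons of the opposite strand, had a log2 difference of -0.41 between ZNF521 and CTL cells. The adjusted p of HOXA7 was 0.967 by edgeR. Exons of HOXA-AS3 also lie opposite HOXA3, HOXA4 and HOXA6, whose log2 differences were -0.08, -0.55 and 0.42. Directions thus differed among these genes, and a link to HOXA-AS3 was not tested. HOXB-AS3 had 58.2 (SAG) and 72.0 (DMSO) in ZNF521 cells, against 48.5 (SAG) and 107 (DMSO) in CTL cells, and was lower with SAG (-0.71, SE 0.27, edgeR adjusted p = 0.391). HOTAIR, a long RNA of HOXC, had 83.5 (SAG) and 91.6 (DMSO) in ZNF521 cells, against 95.9 (SAG) and 102 (DMSO) in CTL cells, and HAGLR, a long RNA of HOXD, had 539 (SAG) and 511 (DMSO) in ZNF521 cells, against 439.8 (SAG) and 596 (DMSO) in CTL cells. The median SAG difference over the 15 was -0.29, against -0.18 over the HOX genes and 0.00 over all tested genes. Of 5 tested genes that flank the clusters 1, MTX2, was higher in ZNF521 cells at the nominal limit, against 2.36% of all, and their median SAG difference was 0.26, while EVX1, SKAP1, PRAC1 and PRAC2 had under 10 counts in every library.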

How the data were processed

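The 4 libraries of DAOY RNA were read as pairs of 50 nt, from strand-specific libraries for which both poly-A enrichment and removal of ribosomal RNA are stated. Per the labels and the study's methods, the authors used STAR 2.7.0e to align reads to hg38 and to count reads per gene, and the raw table they deposited holds these counts. The signal values of the second table are counts that the authors divided by 1 size factor per library (0.887 to 1.19, median of ratios of DESeq2) before they were deposited.

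The members and the lists were chosen with earlier results of these data known. Genes were kept with 10 or more counts in 2 or more libraries, and these 14970 were fitted with edgeR 4.0.16 (R 4.3.3, TMM, glmQLFit and glmQLFTest, two-sided) with cells and treatment as additive terms, which leaves 1 residual degree of freedom, and p was adjusted over all of them by Benjamini-Hochberg with a threshold of 0.05. With 1 library per condition, p measures only the spread between these libraries, including any interaction of cells and treatment. The spread of each gene was moderated towards that of other genes, with 11.7 prior degrees of freedom beside the 1 residual. The p and SE of a gene thus rest mostly on spread shared over genes. Log2 differences are fitted values of edgeR. Ratios of 2 libraries have exact 95% (Clopper-Pearson) intervals for counting error.

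Lengths, GC content and overlaps came from GENCODE for hg38 (19803 of 20363 genes, 97.2%, and all 39 HOX genes). Levels per kb divide the normalized count by the length of the main transcript. Tested HOX genes whose mean normalized count reached 50 are given with every value, with HOX genes at the nominal limit of 0.05 in either comparison and the highest per kb of each cluster, and of other lists up to 4 members of smallest p. MEIS1, HOTAIR and HAGLR were named after their values were seen. Some items are not reported here. Alternatives were DESeq2 1.42.0, limma-trend (limma 3.58.1), offsets in 20 GC bins, RLE factors or plain library size, a mean count over 50 or no filter, a fit with no block, scaling by library total, merged exon length, other limits for genes called not expressed and each library left out. Level per kb of bases shared with no other gene was added after seeing the data.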

Additional observations from a re-analysis of the deposited data

Results flagged for a closer look

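In 2 HOX genes the ZNF521 difference pointed opposite ways under the 2 treatments, with both exact 95% intervals clear of 1, so in 5.71% of the tested HOX genes, against 5.8% of all tested genes. HOXD11 had a ratio of ZNF521 cells to CTL cells of 1.55 (1.13 to 2.13) with SAG and of 0.676 (0.526 to 0.867) with DMSO, so that the log2 ratios differed by 1.19. HOXB7 had a ratio of 0.884 (0.783 to 0.997) with SAG and of 1.25 (1.10 to 1.43) with DMSO, and its log2 ratios differed by -0.51. The intervals cover counting error only, and with 1 library per condition the difference itself was not tested for either gene. Both genes had their extreme value in CTL cells with DMSO, 165.9 normalized counts of HOXD11 as the highest and 410.1 of HOXB7 as the lowest of the 4 libraries.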

How the results depend on the processing

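RLE factors, library size alone, limma and a mean count of at least 50 left every count and median of the HOX genes on its side. Leaving out 1 library gave 0 to 4 HOX genes for ZNF521 and 0 to 6 for SAG at an adjusted p of 0.05 by edgeR (main 0 and 0), 0 to 6 and 0 to 11 at the nominal limit (main 1 and 6), and 0 to 2341 and 3 to 4584 of all genes (main 1 and 6). The high counts came without CTL cells with SAG for ZNF521 and without ZNF521 cells with DMSO for SAG, where the lone library left in an arm is assumed to vary like the rest. The ZNF521 median over HOX genes (main -0.08) ran from -0.21 without CTL cells with SAG to 0.050, reversed, without CTL cells with DMSO, and was -0.012 in the SAG pair, -0.12 in the DMSO pair and -0.016 with GC offsets. The SAG median (main -0.18) was -0.091 with GC offsets. DESeq2 called 0 HOX genes at the nominal limit in either comparison, no block called 0 for ZNF521 and 2 for SAG, and GC offsets called 2 for ZNF521. The shares of all tested genes are not given here for these counts, so they are not read as a trait of the HOX genes. The same holds for the nominal counts without 1 library, apart from those given with a share above. Over all genes no filter gave 100 for ZNF521 and 223 for SAG, GC offsets gave 5 and 10, and no block gave 0 for SAG. With merged exon length HOXA held 17.6%, groups 1 to 3 held 10.8% and groups 9 to 13 held 56.1%. The number not expressed was 1, 1 and 6 under limits of 10 in the sum, 5 and 20 (main 3). The cause was not tested. The other factor served as a block, which pairs the libraries, and no further pairing was possible with 1 library per condition. Under all alternatives 175 values kept their direction, call or size, 40 moved, 1 reversed and 6 of single genes newly passed the adjusted limit. The 175 include the shares of clusters and paralog classes under scaling by library total, which cannot change within a library. They also include values of single genes that changed in size. The ZNF521 difference of HOXD10 was -0.41 in the main fit and -0.11 without CTL cells with DMSO, and was counted as kept. The 4 HOX genes below the count filter had no test, and with no filter 0 of the 39 HOX genes passed an adjusted p of 0.05 by edgeR in either comparison.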
